A study of Caenorhabditis elegans with 24 samples.

Results

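Knockdown of the TOR kinase gene was compared with control RNAi in freely fed adult worms of wild type N2 Caenorhabditis elegans. The comparison rests on 8 of the 24 arrays in the series, 3 labelled Cel-TOR RNAi fed against 5 labelled control RNAi fed, and was chosen by these labels and by no measured value. It covers 12277 genes that passed a filter on dim probe sets, of 17118 genes named by a probe set of their own. Both groups were wild type at day 4 of adulthood, kept at 20 °C, and differed by the RNAi plate on which they grew. RNAi plates carry bacteria that make double-stranded RNA against the chosen gene, which worms take up by feeding. Cel-TOR is let-363 in the array's annotation. The content of the control plate and the age at which RNAi began are not given in the sources used here. RNA came from whole worms, and each array was labelled as a biological replicate. The other 16 arrays were fasted control (5), fed and fasted Cel-Rheb RNAi (4 each) and fasted Cel-TOR RNAi (3) worms, where fasting lasted 48 h. They share the estimate of spread, and the fasted and fed Rheb RNAi groups serve for 2 side comparisons at the end.

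TOR is a protein kinase that joins amino acid supply, energy state and insulin-like signals to growth. In complex 1 with Raptor (DAF-15 in worms) it promotes protein synthesis and restrains autophagy, and in complex 2 with Rictor (RICT-1) it acts on kinases such as SGK-1 and on fat storage. Rheb, a small GTPase, activates complex 1. Reduced TOR activity is known to extend worm lifespan.

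Values are log2 intensities of probe sets after GCRMA, a background correction and normalization method of Affymetrix arrays. A difference is that of TOR RNAi (n = 3) minus control (n = 5), ± its standard error, and "rose" or "fell" means an adjusted p below 0.05 in limma, adjusted over all genes tested. "Shared type" marks a probe set of the _s_at or _x_at design, which can bind related transcripts. Correlations between the 8 arrays over genes were 0.978 to 0.99 within the 2 groups and 0.929 to 0.963 between them. The lower quartile of intensity was 9.42 to 10.1 on the TOR RNAi arrays, 10.2 to 10.3 on control arrays 4 and 5, and above these on control arrays 1 to 3, up to 12. Medians ran the other way, at 46.9 to 50 on the control and 53 to 58 on the TOR RNAi arrays. The 12 arrays of the series with the lowest lower quartiles, called low-quartile arrays here, include all TOR RNAi arrays and control arrays 4 and 5, and the counts of called genes in fed worms, over all genes and by list, were repeated on them. Where 1 array was left out, a list's count that moved by over 1.5 times and by more than 1 gene is given. Actin probe sets at the 3′ end exceeded those in the middle of the transcript by 1.42 to 1.82 (log2) on control and 1.91 to 1.95 on TOR RNAi arrays. For each gene given as risen or fallen, every TOR RNAi array lay on the same side of every control array unless "groups overlapping" is written. The part of these array properties in the results was not tested beyond the repeats given.

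The targeted gene was lower on every TOR RNAi array than on any control array. let-363 read 9.06, 9.60, 9.07, 9.09 and 9.31 on the control arrays and 7.72, 7.74 and 7.87 on the TOR RNAi arrays. It fell by 1.45 ± 0.14 (adjusted p = 9.7e-08), to 36.7% of the control level. A second let-363 probe set read 7.80, 7.83, 7.77, 7.49 and 7.49 on the control arrays and 5.75, 5.50 and 5.98 after knockdown, 26.2% of control. Neither probe set overlapped between the groups, and each gave a two-sided exact permutation p of 0.0179, the smallest that 3 against 5 arrays allow. Among all genes, 33.3% were called in this comparison, 19.9% higher and 13.4% lower.

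Both subunit genes particular to TOR complex 2, rict-1 and sinh-1, fell, and daf-15 of complex 1 did not pass the test. Of 18 genes of the TOR complexes and their regulators, 4 fell and 0 rose by limma's test (1 rose at an unadjusted p under 0.05), with a median log2 difference of -0.02. rict-1, the Rictor subunit of complex 2, read 10.65, 10.85, 10.63, 10.35 and 10.38 on the control arrays and 9.55, 9.41 and 9.07 on the TOR RNAi arrays. It fell by 1.22 ± 0.18 (adjusted p = 4e-05, shared type). sinh-1, which encodes the worm SIN1 subunit of complex 2, fell by 0.89 ± 0.27 (adjusted p = 0.014, -0.75 with values floored at log2 4), and fnip-2, a folliculin-interacting protein gene, fell by 0.97 ± 0.16 (adjusted p = 7.7e-05). daf-15, the Raptor subunit of complex 1, stood at -0.36 ± 0.24 (adjusted p = 0.24), and mlst-8, the subunit common to both complexes, at -0.09 ± 0.22 (adjusted p = 0.79). rheb-1 stood at 0.18 ± 0.26 (adjusted p = 0.61). The Rag GTPase genes raga-1 and ragc-1 stood at 0.29 ± 0.22 (adjusted p = 0.31, shared type) and -0.15 ± 0.10 (adjusted p = 0.28, shared type). The catalytic subunit genes of AMP-activated kinase, an energy sensor, were not called, with aak-1 and aak-2 at 0.08 ± 0.16 (adjusted p = 0.71) and 0.09 ± 0.14 (adjusted p = 0.62) and the upstream kinase par-4 at -0.43 ± 0.17 (adjusted p = 0.062). On the low-quartile arrays the calls were 0 higher and 3 lower, and sinh-1 (-1.18) was not called. Median centring gave 0 higher and 7 lower. Single arrays mattered for sinh-1 (-0.69, not called without TOR RNAi array 3).

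Of 16 genes listed as outputs of TOR signalling, 5 rose and 0 fell by limma's test (0 fell at an unadjusted p under 0.05), with a median log2 difference of 0.39. pha-4, a FOXA transcription factor gene required for diet-induced longevity in worms, rose by 0.84 ± 0.21 (adjusted p = 0.004, shared type). epg-9, the ATG101 homolog of the autophagy initiation complex, rose by 0.82 ± 0.24 (adjusted p = 0.011). The kinase gene sgk-1 read 8.37, 8.13, 8.45, 8.12 and 8.11 on the control arrays and 8.99, 8.94 and 8.99 on the TOR RNAi arrays, and rose by 0.74 ± 0.24 (adjusted p = 0.022). Of 12 insulin pathway genes, 1 rose and 3 fell, with a median log2 difference of -0.10. akt-2, a kinase of the pathway, fell by 0.62 ± 0.24 (adjusted p = 0.049, groups overlapping), and the adaptor subunit gene aap-1 fell by 0.48 ± 0.16 (adjusted p = 0.022, shared type, groups overlapping). daf-16, the FOXO factor that this pathway restrains, stood at -0.04 ± 0.27 (adjusted p = 0.92, shared type), and age-1, the PI3 kinase, at -0.42 ± 0.19 (adjusted p = 0.09, shared type). Its 1 riser was the ligand gene daf-28, which rose by 1.25 ± 0.24 (adjusted p = 0.00042). Over low-quartile arrays only, the calls were 5 higher and 0 lower for TOR outputs and 1 and 0 for insulin pathway, and akt-2 (-0.57) and aap-1 (-0.28) were not called. Centring arrays on their medians gave 2 higher and 1 lower for TOR outputs and left sgk-1 (0.55) uncalled. Array by array, calls moved for TOR outputs (3 higher and 0 lower without TOR RNAi arrays 1 or 2), insulin pathway (1 higher and 1 lower without control array 3 or TOR RNAi arrays 2 or 3), sgk-1 (0.73 to 0.75, not called without TOR RNAi arrays 1, 2 or 3), akt-2 (-0.45 to -0.63, not called without control arrays 1, 3 or 4 or TOR RNAi arrays 1 or 2) and aap-1 (-0.36 to -0.49, not called without control array 3 or TOR RNAi arrays 2 or 3). With the shared type left out, pha-4 (0.45) and akt-2 (-0.62) were not called. Still called but changed in size by over 1.5 times was akt-2 without TOR RNAi array 3 (-0.95).

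**Figure D1:**
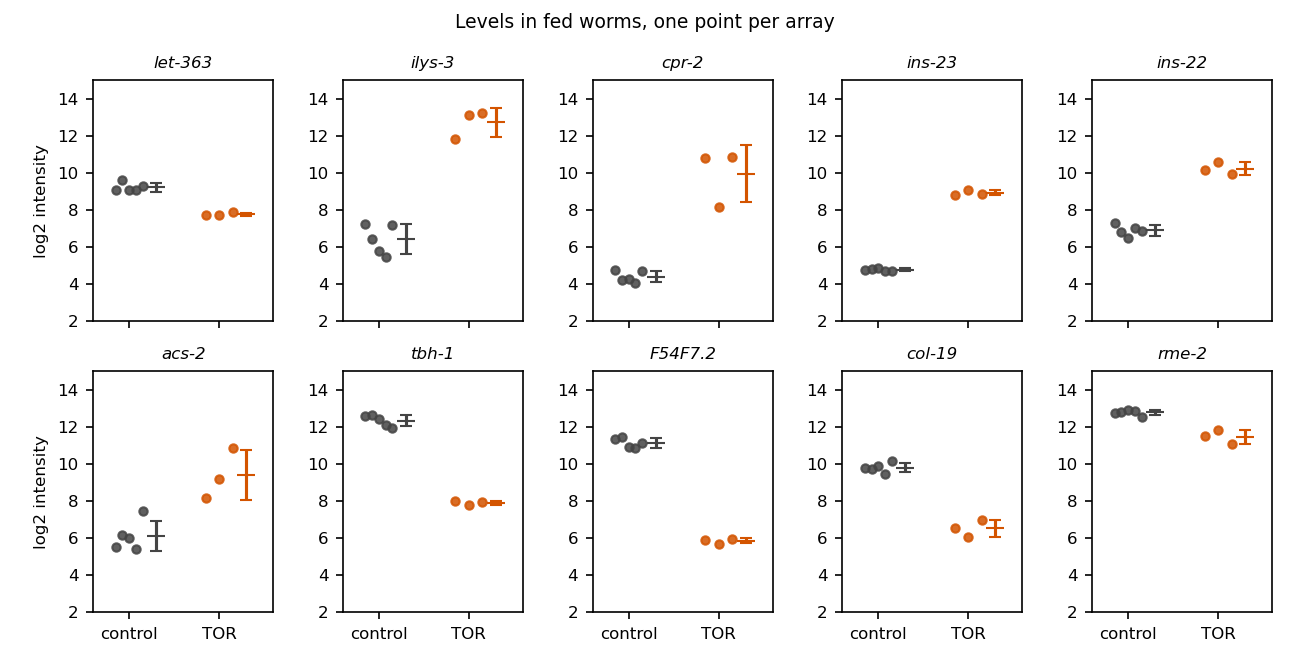
Log2 intensity of 10 genes in fed worms, 1 panel per gene, with 5 control and 3 TOR RNAi arrays as points and the group mean ± SD beside them. let-363 and the 4 fallers tbh-1, F54F7.2, col-19 and rme-2 lie lower on every TOR RNAi array, and ilys-3, cpr-2, ins-23, ins-22 and acs-2 lie higher.

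The difference reached far beyond the TOR pathway. Of 12277 genes, 2437 rose and 1650 fell, and 1653 of the 4087 called genes changed at least 2-fold, 1098 up and 555 down. The arrays of the groups did not overlap in 3505 of the called genes, and of all genes tested they did not in 20.7%, with TOR RNAi higher, and 16.3%, with it lower. The split between rises and falls depended on scaling. Centring every array on its own median moved the median difference of all genes from 0.04 to -0.15, a shift of -0.19, and gave 1628 higher and 2923 lower genes. Rises then made up 35.8% of the calls instead of 59.6%. Differences smaller than this shift therefore have no settled direction. On the low-quartile arrays alone, 1393 genes were called higher and 943 lower, or 11.3% and 7.68%, with 2071 of the 4087 genes called again. These arrays include all the TOR RNAi arrays and 2 of the same controls. Without TOR RNAi array 3, 1567 genes were called higher and 1003 lower.

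**Figure D2:**
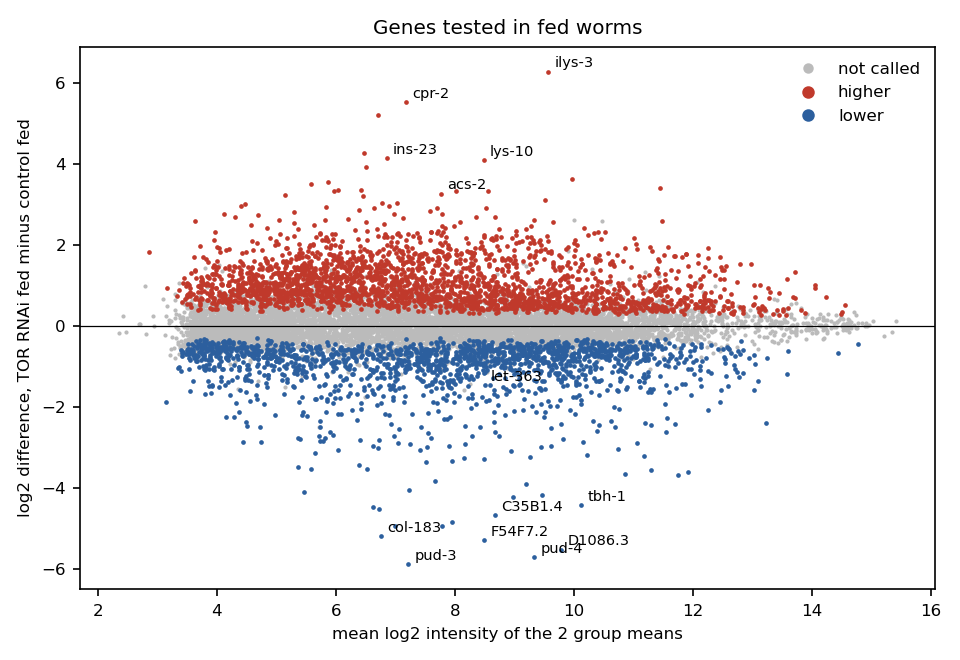
Each of the 12277 genes tested, by the mean of the 2 group means (x, log2 intensity) and the difference of TOR RNAi minus control (y, log2), with genes called higher in red, called lower in blue and not called in grey. The named rises reach 6.29 for ilys-3 and the named falls -5.89 for pud-3.

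The 15 largest rises included 2 lysozyme genes and a cathepsin gene. ilys-3, an invertebrate-type lysozyme that breaks bacterial cell walls, read 7.25, 6.42, 5.77, 5.46 and 7.2 on the control arrays and 11.83, 13.09 and 13.22 on the TOR RNAi arrays. It rose by 6.29 ± 0.44 (adjusted p = 1.3e-09), a 78.3-fold change. cpr-2, a cathepsin B-like cysteine protease gene, read 4.79, 4.23, 4.28, 4.08 and 4.69 on the control arrays and 10.81, 8.17 and 10.84 on the TOR RNAi arrays, and rose by 5.53 ± 0.52 (adjusted p = 7.4e-08). TOR RNAi array 2 was the lowest of its group but still far above the controls. lys-10, a protist-type lysozyme gene, rose by 4.1 ± 0.61 (adjusted p = 3.5e-05), and the C-type lectin gene clec-10 rose by 4.28 ± 0.40 (adjusted p = 7.4e-08). ins-23, an insulin-like peptide gene, read 4.75, 4.84, 4.88, 4.72 and 4.71 on the control arrays and 8.82, 9.09 and 8.88 on the TOR RNAi arrays, with hardly any spread within either group. It rose by 4.15 ± 0.27 (adjusted p = 4.8e-10). dsl-1, a gene of the Notch ligand family, rose by 3.52 ± 0.67 (adjusted p = 0.00042, shared type, 2.96 with values floored at log2 4), and ptr-22, a patched-related gene, rose by 3.37 ± 0.41 (adjusted p = 3e-06). otpl-6, of the otopetrin family, rose by 3.57 ± 0.39 (adjusted p = 8.1e-07). The other 7, R07C12.1, nspg-7.2, Y53F4B.45, T05E12.3, T19C4.5, F45D11.5 and T22B7.3, rose by 3.34 to 5.21. With low-quartile arrays alone, dsl-1 (2.38) was not called.

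The 15 largest falls were of genes with a mean log2 intensity of 7.52 to 12.55 in control worms. pud-3 and pud-4, 2 related genes, fell most. pud-3 read 9.27, 8.67, 9.22, 11.90 and 11.76 on the control arrays and 3.90, 4.59 and 4.33 on the TOR RNAi arrays, and fell by 5.89 ± 0.59 (adjusted p = 1.9e-07). Control arrays 4 and 5 were the highest for it. pud-4 fell by 5.71 ± 0.58 (adjusted p = 2.3e-07), and D1086.3 fell by 5.52 ± 0.38 (adjusted p = 1.1e-09). F54F7.2 read 11.34, 11.43, 10.89, 10.87 and 11.14 on the control arrays and 5.91, 5.71 and 5.95 on the TOR RNAi arrays. It fell by 5.28 ± 0.22 (adjusted p = 1.2e-13), a 38.9-fold change with no overlap. tbh-1, the enzyme that makes octopamine, the worm counterpart of noradrenaline, read 12.58, 12.63, 12.44, 12.09 and 11.95 on the control arrays and 7.98, 7.80 and 7.95 on the TOR RNAi arrays, and fell by 4.42 ± 0.18 (adjusted p = 1.2e-13, shared type). 3 cuticle collagen genes were among the 15, namely col-183, which fell by 5.19 ± 0.43 (adjusted p = 1.4e-08), col-101, which fell by 4.21 ± 0.28 (adjusted p = 5.3e-10, shared type), and col-143, which fell by 4.16 ± 0.47 (adjusted p = 1.3e-06). fipr-26, of the fungus-induced peptide family, fell by 4.94 ± 0.41 (adjusted p = 1.4e-08, shared type). Y51H7C.1, F46F2.3, C35B1.4, spig-20, C17H12.6 and W10G11.2 fell by 4.1 to 4.93, the last by 3.52 with values floored at log2 4.

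**Figure D3:**
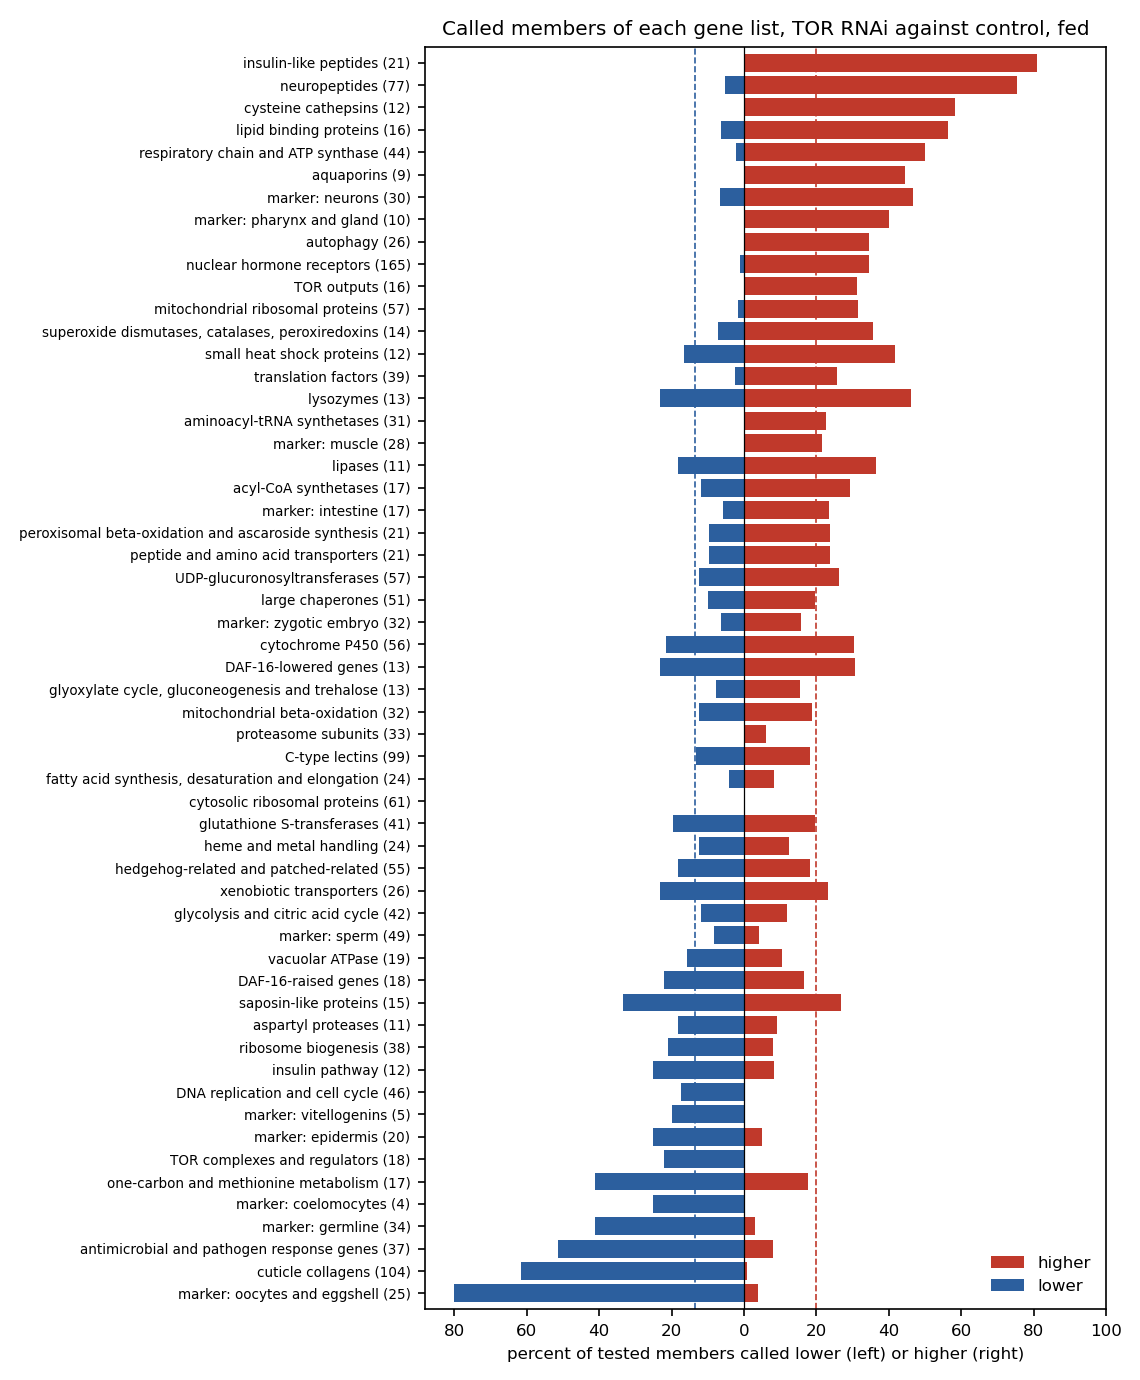
Percent of tested members called higher (right, red) or lower (left, blue) in fed TOR RNAi worms for 56 gene lists, with the number tested in brackets and dashed lines at the shares of all genes, 19.9% higher and 13.4% lower. Insulin-like peptides and neuropeptides stand at the top, oocyte markers and cuticle collagens at the bottom. After median centring the calls of the respiratory chain drop from 22 higher and 1 lower to 4 and 1.

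Most genes for secreted signalling peptides rose. Of 21 insulin-like peptide genes tested, 17 rose and 0 fell by limma's test (0 fell at an unadjusted p under 0.05), with a median log2 difference of 1.46, against 0.04 for all genes. These peptides are ligands of the insulin-like receptor, made largely by neurons and gut, and act as agonists or antagonists. ins-22 read 7.31, 6.79, 6.48, 7.02 and 6.88 on the control arrays and 10.13, 10.61 and 9.95 on the TOR RNAi arrays. It rose by 3.33 ± 0.31 (adjusted p = 7.7e-08), with every TOR RNAi array above every control. ins-7, an agonist gene of the intestine, rose by 1.72 ± 0.31 (adjusted p = 0.00028), and ins-17 rose by 1.66 ± 0.21 (adjusted p = 3.9e-06). The summed intensity of the list was 2800 to 3879 on the control arrays and 10640 to 11490 on the TOR RNAi arrays. Of 77 neuropeptide genes, 58 rose and 4 fell, with a median log2 difference of 1.42. They encode precursors of FMRFamide-like (flp) and other (nlp) peptides, released by neurons to modulate synapses, muscle and gut. nlp-5 read 6.59, 5.72, 6.11, 6.38 and 6.48 on the control arrays and 7.84, 7.79 and 8.05 on the TOR RNAi arrays. It rose by 1.64 ± 0.21 (adjusted p = 6.3e-06), nlp-8 rose by 2.3 ± 0.30 (adjusted p = 8.8e-06), and nlp-14 rose by 2.38 ± 0.32 (adjusted p = 9.9e-06, shared type). flp-5 rose by 1.69 ± 0.23 (adjusted p = 1.5e-05). The 4 fallers, outside the naming rule and picked for the small count, were nlp-26 at -1.31 ± 0.24 (adjusted p = 0.00035), nlp-28 at -1.29 ± 0.41 (adjusted p = 0.019), nlp-29 at -1.83 ± 0.39 (adjusted p = 0.0011) and nlp-33 at -1.54 ± 0.42 (adjusted p = 0.0071). nlp-28, nlp-29 and nlp-33 encode antimicrobial peptides of the epidermis. Within the low-quartile set, the calls were 15 higher and 0 lower for insulin-like peptides and 54 and 6 for neuropeptides.

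**Figure D4:**
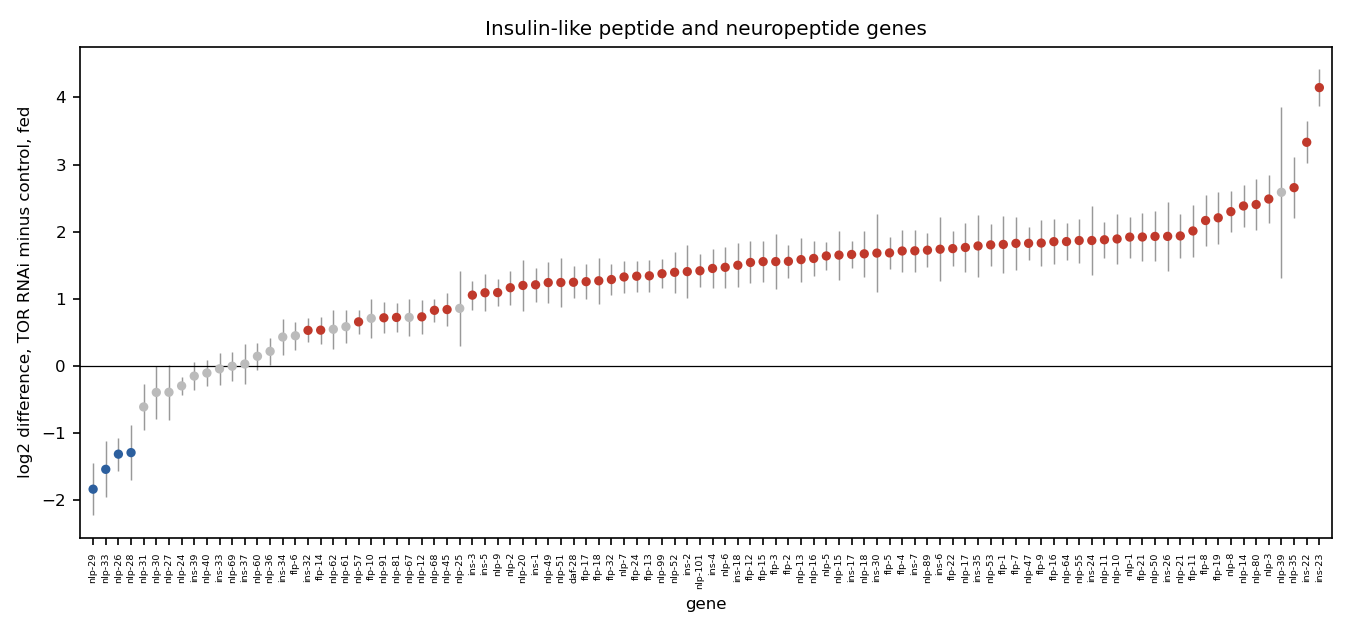
Log2 difference of TOR RNAi minus control in fed worms, with bars of 1 standard error, for the insulin-like peptide and neuropeptide genes tested, ordered by size. Genes called higher are red, called lower blue and not called grey. Most lie above 0 and called, ins-22 and ins-23 reach 3.33 and 4.15, and 4 nlp genes are called below 0.

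Neuron markers had more rises than falls. Of 30 neuron markers tested, 14 rose and 2 fell, with a median log2 difference of 0.54. ric-4, the SNAP-25 protein of synaptic vesicle fusion, read 7.16, 7.26, 7.70, 7.41 and 7.66 on the control arrays and 9.19, 8.97 and 9.33 on the TOR RNAi arrays, and rose by 1.72 ± 0.22 (adjusted p = 6e-06). snt-1, synaptotagmin, rose by 1.61 ± 0.28 (adjusted p = 0.0002), rab-3, a vesicle GTPase gene, rose by 1.15 ± 0.23 (adjusted p = 0.00056, shared type), and unc-25, which makes GABA, rose by 1.48 ± 0.26 (adjusted p = 0.00017). The 2 fallers, named for the small count and outside the rule, were tdc-1 at -1.06 ± 0.32 (adjusted p = 0.013) and bas-1 at -0.74 ± 0.19 (adjusted p = 0.006), which make tyramine and serotonin or dopamine. tdc-1 makes the substrate of tbh-1, which fell by 4.42. The summed neuron marker intensity was 9310 to 11140 on the control arrays and 13250 to 13760 on the TOR RNAi arrays. cat-2, cha-1 and tph-1, defining markers of dopamine, acetylcholine and serotonin neurons, were below log2 4 in both groups. In whole worms, fewer cells of a type and less RNA per cell cannot be told apart. Transcripts of germ cells fell on the same arrays, and their part in the rise of neuronal genes was not tested. From low-quartile arrays alone, the calls were 14 higher and 1 lower.

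Most cysteine cathepsin genes, proteases of lysosomes and gut, rose, and lysozyme genes went both ways. Of 12 cysteine cathepsin genes, 7 rose and 0 fell by limma's test (0 fell at an unadjusted p under 0.05), with a median log2 difference of 0.98. cpl-1, cathepsin L, read 12.802, 12.79, 13.02, 12.62 and 12.71 on the control arrays and 13.79, 13.70 and 13.72 on the TOR RNAi arrays, and rose by 0.95 ± 0.13 (adjusted p = 2.1e-05, shared type). cpr-1 rose by 1.17 ± 0.28 (adjusted p = 0.0033), cpr-4 rose by 1.02 ± 0.18 (adjusted p = 0.00019), and tag-196, a cathepsin F-like gene, rose by 1.05 ± 0.22 (adjusted p = 0.00099). The summed cathepsin intensity was 57950 to 73080 on the control arrays and 94430 to 115300 on the TOR RNAi arrays. Of 11 aspartyl protease genes, 1 rose and 2 fell, with a median log2 difference of 0.06 but -0.12 after median centring. asp-8 fell by 1.66 ± 0.34 (adjusted p = 0.00078). Of 13 lysozyme genes, 6 rose and 3 fell, with a median log2 difference of 0.79. Beside ilys-3 and lys-10, ilys-4 rose by 1.46 ± 0.23 (adjusted p = 5.8e-05), whereas ilys-5 fell by 2.38 ± 0.37 (adjusted p = 6.1e-05, shared type). Its arrays read 14.51, 14.33, 14.60, 14.33 and 14.35 on the control arrays and 11.78, 12.35 and 11.99 on the TOR RNAi arrays. Among the low-quartile arrays, the calls were 4 higher and 0 lower for cysteine cathepsins, 0 and 2 for aspartyl proteases and 5 and 3 for lysozymes, and cpr-1 (1.16) was not called. Centring on medians gave 1 higher and 4 lower for aspartyl proteases.

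Saposin-like peptides, which bind lipids and can permeate bacterial membranes, split evenly. Of 15 tested, 4 rose and 5 fell, with a median log2 difference of 0.09 but -0.10 after median centring. spp-12 rose by 2.25 ± 0.44 (adjusted p = 0.00052), spp-15 rose by 1.56 ± 0.32 (adjusted p = 0.00078), and spp-24 fell by 1.36 ± 0.16 (adjusted p = 1.7e-06). spp-1, an antibacterial saposin gene of the gut, rose by 1.70 ± 0.29 (adjusted p = 0.00017, shared type). C-type lectin genes, many of them secreted by gut cells, showed shares near those of all genes. Of 99 tested, 18 rose and 13 fell, with a median log2 difference of 0.01 but -0.17 after median centring. clec-67 fell by 2.71 ± 0.26 (adjusted p = 1e-07), clec-85 fell by 2.45 ± 0.31 (adjusted p = 4.5e-06), and clec-264 rose by 2.85 ± 0.37 (adjusted p = 6.7e-06). The share of intestine markers called was near that of all genes too. Of 17 intestine markers, 4 rose and 1 fell, with a median log2 difference of 0.15 but -0.03 after median centring; the shares risen and fallen were 23.5% and 5.88% beside 19.9% and 13.4% of all genes. elt-2 and elt-7, GATA factors of the gut, rose by 0.65 ± 0.20 (adjusted p = 0.015) and by 0.68 ± 0.17 (adjusted p = 0.0033). nhx-2, a sodium-proton exchanger gene of the gut membrane, rose by 1.36 ± 0.27 (adjusted p = 0.00051), while ges-1, a gut esterase gene, fell by 1.72 ± 0.25 (adjusted p = 2.2e-05, shared type). The summed intestine marker intensity was 47360 to 60080 on the control arrays and 47310 to 59860 on the TOR RNAi arrays, so the groups overlapped. On the low-quartile arrays the calls were 4 higher and 6 lower for saposin-like proteins, 12 and 15 for C-type lectins and 4 and 1 for intestine. Median-centred arrays gave 17 higher and 25 lower for C-type lectins and left elt-2 (0.46) uncalled. Leaving out 1 array moved elt-2 (0.53, not called without TOR RNAi array 3). With the shared type left out, spp-1 (0.22) was not called.

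The share of peptide and amino acid transporter genes called was near that of all genes. Of 21 peptide and amino acid transporter genes, 5 rose and 2 fell, with a median log2 difference of 0.20; the shares risen and fallen were 23.8% and 9.52% beside 19.9% and 13.4% of all genes. pept-1, the gut's peptide transporter gene, read 5.23, 6.0, 6.23, 9.49 and 7.01 on the control arrays and 8.90, 9.92 and 9.31 on the TOR RNAi arrays. It rose by 2.58 ± 0.55 (adjusted p = 0.0012, groups overlapping), and control array 4 was as high as the TOR RNAi arrays. snf-11, a GABA transporter gene, rose by 1.45 ± 0.18 (adjusted p = 3.3e-06). Of 9 aquaporin genes, 4 rose and 0 fell by limma's test (1 fell at an unadjusted p under 0.05), with a median log2 difference of 0.77. aqp-10 rose by 1.0 ± 0.20 (adjusted p = 0.00064, shared type). aqp-1, a glycerol channel gene, rose by 1.93 ± 0.55 (adjusted p = 0.01, groups overlapping). Over low-quartile arrays only, the calls were 2 higher and 1 lower for peptide and amino acid transporters and 2 and 0 for aquaporins, and pept-1 (1.12) and aqp-1 (1.03) were not called. Median centring gave 4 higher and 4 lower for peptide and amino acid transporters and 2 and 1 for aquaporins. Dependence on 1 array was seen in aquaporins (1 to 2 higher and 0 lower without control array 2 or TOR RNAi arrays 1, 2 or 3) and aqp-1 (1.43 to 1.67, not called without TOR RNAi arrays 2 or 3). The median also moved for peptide and amino acid transporters (0.12 without control array 3, 0.11 without control array 4 and 0.07 without TOR RNAi array 3) and aquaporins (0.51 without control array 3).

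Genes of fat handling were called in both directions. For mitochondrial and peroxisomal beta-oxidation the shares called were near those of all genes, of which 19.9% rose and 13.4% fell. The share risen was larger for acyl-CoA synthetases, and both shares were smaller for fatty acid synthesis. acs-2, a mitochondrial acyl-CoA synthetase gene that nhr-49 raises in fasting, read 5.52, 6.17, 6.02, 5.43 and 7.48 on the control arrays and 8.17, 9.19 and 10.84 on the TOR RNAi arrays. It rose by 3.28 ± 0.51 (adjusted p = 5.1e-05), and control array 5 and TOR RNAi array 1 came closest to each other. Of 32 mitochondrial beta-oxidation genes, 6 rose and 4 fell, with a median log2 difference of 0.08 but -0.11 after median centring. acdh-1, an acyl-CoA dehydrogenase gene of the propionate shunt, fell by 3.48 ± 0.73 (adjusted p = 0.00098, -3.10 with values floored at log2 4), and acdh-2 fell by 0.98 ± 0.21 (adjusted p = 0.0012, shared type). cpt-6, of the carnitine palmitoyltransferase family, rose by 0.64 ± 0.16 (adjusted p = 0.0037, shared type). Of 17 acyl-CoA synthetase genes, 5 rose and 2 fell, with a median log2 difference of 0.12 but -0.06 after median centring, and acs-3 rose by 1.39 ± 0.22 (adjusted p = 7.1e-05). Of 21 peroxisomal genes of beta-oxidation and ascaroside synthesis, 5 rose and 2 fell, with a median log2 difference of 0.36. acox-1.1, an acyl-CoA oxidase gene, rose by 0.79 ± 0.17 (adjusted p = 0.001), and acox-1.2 fell by 1.5 ± 0.21 (adjusted p = 2.2e-05). Genes that make and desaturate fatty acids showed few calls. Of 24 such genes, 2 rose and 1 fell, with a median log2 difference of 0.02 but -0.16 after median centring, and fat-3, the delta-6 desaturase, rose by 0.78 ± 0.19 (adjusted p = 0.0035). With low-quartile arrays alone, the calls were 4 higher and 3 lower for mitochondrial beta-oxidation, 4 and 1 for acyl-CoA synthetases, 4 and 1 for peroxisomal beta-oxidation and 2 and 1 for fatty acid synthesis. Centring arrays on their medians gave 4 higher and 4 lower for peroxisomal beta-oxidation and 1 and 5 for fatty acid synthesis. Single arrays mattered for mitochondrial beta-oxidation (4 to 6 higher and 2 lower without control arrays 1 or 3 or TOR RNAi array 2) and peroxisomal beta-oxidation (3 higher and 1 lower without TOR RNAi array 3). Medians moved with 1 array for peroxisomal beta-oxidation (0.19 without TOR RNAi array 3). Still called but changed in size by over 1.5 times was acdh-1 on the low-quartile arrays (-1.94).

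Of 16 genes for intracellular and secreted lipid binding proteins, 9 rose and 1 fell, with a median log2 difference of 0.60. lbp-3, a secreted fatty acid binding protein gene, read 9.95, 9.68, 9.93, 10.18 and 10.36 on the control arrays and 11.73, 11.42 and 11.72 on the TOR RNAi arrays, and rose by 1.6 ± 0.19 (adjusted p = 2.6e-06). lbp-1 rose by 1.36 ± 0.25 (adjusted p = 0.00034), and far-6 rose by 1.3 ± 0.23 (adjusted p = 0.00022). The 1 faller, far-3, fell by 2.41 ± 0.35 (adjusted p = 2.6e-05, shared type). Their summed intensity was 69550 to 79560 on the control arrays and 91650 to 103500 on the TOR RNAi arrays. Of 11 lipase genes, 4 rose and 2 fell, with a median log2 difference of -0.30. lipl-7 rose by 1.90 ± 0.26 (adjusted p = 1.7e-05), and lips-10 rose by 1.24 ± 0.20 (adjusted p = 6.7e-05). fil-2, a fasting-induced lipase gene, fell by 1.86 ± 0.34 (adjusted p = 0.00029, -0.47 with values floored at log2 4), and lipl-2 fell by 1.76 ± 0.39 (adjusted p = 0.0017). Within the low-quartile set, the calls were 7 higher and 1 lower for lipid binding proteins and 3 and 3 for lipases. Centring on medians gave 3 higher and 4 lower for lipases. A single array moved the median for lipases (0.05 without control array 4, 0.02 without control array 5 and -0.03 without TOR RNAi array 3).

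Genes of sugar metabolism were called in smaller shares than all genes, of which 19.9% rose and 13.4% fell. The shares risen and fallen were 11.9% and 11.9% for glycolysis and the citric acid cycle and 15.4% and 7.69% for the glyoxylate cycle list. Of 42 genes of glycolysis and the citric acid cycle, 5 rose and 5 fell, with a median log2 difference of -0.03. aldo-2, an aldolase gene, fell by 0.59 ± 0.12 (adjusted p = 0.001, shared type), and idh-2, isocitrate dehydrogenase, rose by 0.65 ± 0.17 (adjusted p = 0.005). Of 13 genes for the glyoxylate cycle, trehalose and gluconeogenesis, 2 rose and 1 fell, with a median log2 difference of 0.03 but -0.15 after median centring. tre-2, a trehalase gene, rose by 1.04 ± 0.13 (adjusted p = 6.3e-06, shared type), and pck-2, phosphoenolpyruvate carboxykinase, fell by 0.58 ± 0.14 (adjusted p = 0.0033). From low-quartile arrays alone, the calls were 0 higher and 1 lower for glycolysis and citric acid cycle and 2 and 0 for the glyoxylate cycle list, and idh-2 (0.47) and pck-2 (-0.54) were not called. Median-centred arrays gave 2 higher and 9 lower for glycolysis and citric acid cycle. Array by array, calls moved for glycolysis and citric acid cycle (1 to 3 higher and 2 to 5 lower without control arrays 2 or 3 or TOR RNAi array 3).

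Many mitochondrial genes rose by small amounts, and the counts depended on scaling. Of 44 genes of the respiratory chain and ATP synthase, 22 rose and 1 fell, with a median log2 difference of 0.31. atp-3, an ATP synthase subunit gene, read 12.16, 12.14, 11.95, 12.06 and 11.87 on the control arrays and 12.602, 12.63 and 12.53 on the TOR RNAi arrays, and rose by 0.55 ± 0.11 (adjusted p = 0.00057, shared type). nuaf-1, an assembly factor of complex I, rose by 0.99 ± 0.21 (adjusted p = 0.00095), and isp-1, the iron-sulphur protein of complex III, rose by 0.47 ± 0.11 (adjusted p = 0.0024, shared type). The summed intensity of the list was 148900 to 170400 on the control arrays and 198600 to 201500 on the TOR RNAi arrays, with no overlap. Of 57 mitochondrial ribosomal protein genes, 18 rose and 1 fell, with a median log2 difference of 0.26. mrps-12 rose by 0.86 ± 0.16 (adjusted p = 0.00028), and mrpl-9 rose by 0.81 ± 0.19 (adjusted p = 0.0021). Among the low-quartile arrays, the calls were 5 higher and 0 lower for the respiratory chain and 1 and 0 for mitochondrial ribosomal proteins, and mrpl-9 (0.47) was not called. Median centring gave 4 higher and 1 lower for the respiratory chain and 5 and 4 for mitochondrial ribosomal proteins and left isp-1 (0.29) uncalled, and further quantile normalization 20 higher and 3 lower for mitochondrial ribosomal proteins. Leaving out 1 array moved the respiratory chain (13 higher and 0 lower without TOR RNAi array 3) and mitochondrial ribosomal proteins (9 to 11 higher and 0 to 1 lower without control array 1 or TOR RNAi arrays 1 or 3). Still called but changed in size by over 1.5 times were atp-3 after median centring (0.37) and nuaf-1 on the low-quartile arrays (0.64).

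Listed cytosolic ribosomal protein genes, whose translation TOR promotes in mammals, gave no call. The list leaves out names with a letter suffix. By name prefix, 1 rose and 0 fell of 44 rpl genes, and 0 rose and 0 fell of 30 rps genes. Of the 61 listed genes tested, 0 rose and 0 fell by limma's test (2 and 1 at an unadjusted p under 0.05), with a median log2 difference of -0.0035. Their summed intensity was 1201000 to 1243000 on the control arrays and 1217000 to 1236000 on the TOR RNAi arrays. Genes for ribosome assembly fell in part. Of 38 of them, 3 rose and 8 fell, with a median log2 difference of -0.16. fib-1, the nucleolar methylase fibrillarin, read 12.94, 13.05, 12.85, 12.82 and 12.88 on the control arrays and 12.21, 12.18 and 12.06 on the TOR RNAi arrays, and fell by 0.76 ± 0.12 (adjusted p = 5.7e-05, shared type). rpoa-1, a subunit of RNA polymerase I, fell by 1.0 ± 0.22 (adjusted p = 0.0015). ncl-1, which represses nucleolar size and rRNA synthesis, fell by 1.0 ± 0.23 (adjusted p = 0.0021). Among translation factors rises outnumbered falls. Of 39 tested, 10 rose and 1 fell, with a median log2 difference of 0.23. eif-3.I and eif-3.E, subunits of initiation factor eIF3, rose by 1.93 ± 0.32 (adjusted p = 0.00013, shared type) and by 1.52 ± 0.21 (adjusted p = 2e-05, shared type). eif-2Bbeta, of the exchange factor eIF2B, rose by 0.72 ± 0.15 (adjusted p = 0.001, shared type). Of 31 aminoacyl-tRNA synthetase genes, 7 rose and 0 fell by limma's test (1 fell at an unadjusted p under 0.05), with a median log2 difference of 0.22, sars-1 for serine among them, which rose by 0.66 ± 0.14 (adjusted p = 0.001, shared type). On the low-quartile arrays the calls were 0 higher and 0 lower for cytosolic ribosomal proteins, 0 and 2 for ribosome biogenesis, 2 and 0 for translation factors and 0 and 0 for aminoacyl-tRNA synthetases, and ncl-1 (-0.73), eif-2Bbeta (0.54) and sars-1 (0.53) were not called. Centring arrays on their medians gave 0 higher and 7 lower for cytosolic ribosomal proteins, 1 and 13 for ribosome biogenesis, 3 and 1 for translation factors and 4 and 3 for aminoacyl-tRNA synthetases. Dependence on 1 array was seen in ribosome biogenesis (1 to 5 higher and 5 to 7 lower without control array 5 or TOR RNAi arrays 1, 2 or 3) and translation factors (6 higher and 0 lower without TOR RNAi array 2). Cytosolic ribosomal proteins had 2 higher and 1 lower without control array 5.

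Some autophagy genes rose by small amounts. Of 26 tested, 9 rose and 0 fell by limma's test (0 fell at an unadjusted p under 0.05), with a median log2 difference of 0.30. lgg-2, an LC3 homolog of the autophagosome membrane, read 11.46, 11.33, 11.63, 11.60 and 11.54 on the control arrays and 12.22, 12.15 and 12.26 on the TOR RNAi arrays, and rose by 0.70 ± 0.12 (adjusted p = 0.00012). vps-34, the PI3 kinase of autophagosome formation, rose by 0.59 ± 0.12 (adjusted p = 0.00088), atg-7, the activating enzyme of conjugation, rose by 0.50 ± 0.11 (adjusted p = 0.0014, shared type), and atg-16.1 rose by 0.78 ± 0.16 (adjusted p = 0.0007, shared type). epg-2, a cargo adaptor gene, rose by 1.47 ± 0.36 (adjusted p = 0.0031). Of 19 vacuolar ATPase genes, which acidify lysosomes, 2 rose and 3 fell, with a median log2 difference of 0.10 but -0.09 after median centring, and vha-7, a membrane subunit gene, fell by 0.99 ± 0.21 (adjusted p = 0.0011, shared type). Of 33 proteasome subunit genes, 2 rose and 0 fell by limma's test (1 fell at an unadjusted p under 0.05), with a median log2 difference of 0.13 but -0.05 after median centring. pas-5, an alpha ring subunit gene, rose by 0.54 ± 0.16 (adjusted p = 0.013), and rpn-6.1, a lid subunit gene, rose by 0.43 ± 0.16 (adjusted p = 0.04, shared type, groups overlapping). Over low-quartile arrays only, the calls were 6 higher and 0 lower for autophagy, 0 and 1 for vacuolar ATPase and 0 and 0 for proteasome subunits, and atg-7 (0.45), epg-2 (1.25), vha-7 (-0.83), pas-5 (0.30) and rpn-6.1 (0.32) were not called. Centring on medians left pas-5 (0.36) and rpn-6.1 (0.24) uncalled. Single arrays mattered for vacuolar ATPase (0 to 4 higher and 1 to 2 lower without control arrays 2, 3 or 4 or TOR RNAi array 3) and proteasome subunits (5 higher and 0 lower without control array 4). They also mattered for pas-5 (0.51, not called without TOR RNAi array 3) and rpn-6.1 (0.34 to 0.44, not called without control arrays 1, 2, 3 or 5 or TOR RNAi arrays 1 or 2). Still called but changed in size by over 1.5 times was atg-7 after median centring (0.32).

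Most cuticle collagen genes fell. Of those tested, 1 rose and 64 fell, with a median log2 difference of -0.64, and 39 were not called. Collagens form the worm's cuticle and are secreted by the epidermis, largely in pulses before each moult. col-19, an adult collagen gene, read 9.76, 9.72, 9.87, 9.47 and 10.14 on the control arrays and 6.56, 6.04 and 6.97 on the TOR RNAi arrays, and fell by 3.27 ± 0.28 (adjusted p = 2.8e-08). col-183 read 10.60, 10.04, 9.67, 7.98 and 8.46 on the control arrays and 4.62, 3.78 and 4.08 on the TOR RNAi arrays. It fell by 5.19, and control arrays 4 and 5 were its lowest controls. col-181 fell by 3.55 ± 0.35 (adjusted p = 1.3e-07), and col-158 fell by 2.21 ± 0.16 (adjusted p = 1.5e-09). The groups did not overlap in any of these 4 genes, and the summed collagen intensity was 52860 to 111700 on the control arrays and 9616 to 23510 on the TOR RNAi arrays. The 1 riser, dpy-17, outside the rule and named for the count, was at 0.88 ± 0.32 (adjusted p = 0.037). The summed epidermis marker intensity was 9487 to 13920 on the control arrays and 6095 to 6995 on the TOR RNAi arrays. Of 20 epidermis markers, 1 rose and 5 fell, with a median log2 difference of -0.12. mup-4, which anchors the cuticle to muscle through the epidermis, fell by 2.3 ± 0.29 (adjusted p = 4.2e-06, shared type), and nhr-23, a receptor gene that drives moulting, fell by 1.64 ± 0.29 (adjusted p = 0.00023, shared type). Of 55 hedgehog-related and patched-related genes, 10 rose and 10 fell, with a median log2 difference of -0.10. grl-4 fell by 2.96 ± 0.28 (adjusted p = 1e-07, shared type), ptr-25 fell by 1.77 ± 0.22 (adjusted p = 4.8e-06, shared type), and ptr-2 fell by 1.16 ± 0.25 (adjusted p = 0.001, shared type). With low-quartile arrays alone, the calls were 0 higher and 30 lower for cuticle collagens, 0 and 3 for epidermis and 7 and 6 for hedgehog-related and patched-related. Median-centred arrays gave 1 higher and 8 lower for epidermis and 6 and 15 for hedgehog-related and patched-related. Array by array, calls moved for hedgehog-related and patched-related (6 higher and 8 lower without TOR RNAi array 3).

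Many antimicrobial and pathogen response genes fell. Of 37 tested, 3 rose and 19 fell, with a median log2 difference of -1.05. cnc-7 and cnc-6 encode caenacins, antimicrobial peptides of the epidermis. cnc-6 read 8.27, 7.55, 9.01, 7.49 and 9.11 on the control arrays and 4.64, 4.66 and 5.0 on the TOR RNAi arrays, and fell by 3.52 ± 0.36 (adjusted p = 2.6e-07). cnc-7 fell by 4.06 ± 0.63 (adjusted p = 5.8e-05, shared type). irg-4 and irg-8, infection response genes of the gut, fell by 2.82 ± 0.48 (adjusted p = 0.00014) and by 2.04 ± 0.37 (adjusted p = 0.00024). K08D8.5, of the CUB-like family, fell by 2.80 ± 0.41 (adjusted p = 3.1e-05, shared type). Their summed intensity was 53120 to 78260 on the control arrays and 24160 to 38070 on the TOR RNAi arrays. The 3 risers, outside the rule, were abf-5 at 2.14 ± 0.47 (adjusted p = 0.0016), cnc-1 at 0.88 ± 0.29 (adjusted p = 0.023) and irg-2 at 0.93 ± 0.21 (adjusted p = 0.0018). Within the low-quartile set, the calls were 1 higher and 21 lower.

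Most oocyte markers fell. Of 25 oocyte and eggshell markers, 1 rose and 20 fell, with a median log2 difference of -0.93. rme-2, the yolk receptor of oocytes, read 12.73, 12.799, 12.92, 12.88 and 12.55 on the control arrays and 11.51, 11.8005 and 11.07 on the TOR RNAi arrays, and fell by 1.31 ± 0.18 (adjusted p = 1.5e-05). chs-1, the chitin synthase of the eggshell, fell by 1.27 ± 0.21 (adjusted p = 0.00011), cbd-1, a chitin-binding eggshell protein gene, fell by 0.80 ± 0.13 (adjusted p = 0.00014, shared type), and puf-11, an RNA-binding protein gene of oocytes, fell by 1.08 ± 0.18 (adjusted p = 0.00013). The summed intensity of these markers was 201200 to 258200 on the control arrays and 121900 to 160200 on the TOR RNAi arrays, without overlap. skr-1, the 1 riser, was outside the rule at 0.49 ± 0.18 (adjusted p = 0.037). Of 34 germline markers, 1 rose and 14 fell, with a median log2 difference of -0.39. fbf-1, which keeps germline stem cells, fell by 1.3 ± 0.26 (adjusted p = 0.00062). glh-2 and pgl-1, components of P granules, fell by 1.06 ± 0.17 (adjusted p = 9e-05) and by 0.74 ± 0.17 (adjusted p = 0.0024, shared type). prg-1, the Piwi protein of small RNA silencing, fell by 0.96 ± 0.22 (adjusted p = 0.0022, shared type). The summed germline marker intensity was 47540 to 57960 on the control arrays and 33480 to 41930 on the TOR RNAi arrays. Of 46 DNA replication and cell cycle genes, 8 fell and 0 rose by limma's test (2 rose at an unadjusted p under 0.05), with a median log2 difference of -0.11. orc-1 and mcm-2, of the replication origin complex and helicase, fell by 0.89 ± 0.20 (adjusted p = 0.0015) and by 0.74 ± 0.16 (adjusted p = 0.0013, shared type). From low-quartile arrays alone, the calls were 0 higher and 12 lower for oocytes and eggshell, 0 and 9 for germline and 1 and 1 for DNA replication and cell cycle, and mcm-2 (-0.56) was not called. Median centring gave 0 higher and 16 lower for DNA replication and cell cycle. Leaving out 1 array moved germline (1 higher and 5 to 9 lower without control array 3 or TOR RNAi array 3) and DNA replication and cell cycle (0 higher and 5 lower without TOR RNAi array 3). Still called but changed in size by over 1.5 times was cbd-1 without the shared type (-0.39).

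Yolk, sperm and embryo genes had smaller shares of calls than all genes (33.3%). Vitellogenins, yolk proteins made in the gut, gave 1 call among 5. vit-1 fell by 0.90 ± 0.25 (adjusted p = 0.0077), while vit-2, vit-5 and vit-6 stood at 0.26 ± 0.13 (adjusted p = 0.13), -0.14 ± 0.15 (adjusted p = 0.5, shared type) and 0.12 ± 0.13 (adjusted p = 0.52). vit-4 stood at -0.24 ± 0.15 (adjusted p = 0.22, shared type). Their summed intensity was 135000 to 157700 on the control arrays and 136000 to 148900 on the TOR RNAi arrays. Of 49 sperm markers tested, 2 rose and 4 fell, with a median log2 difference of -0.11, and 25 of 73 on the array were below log2 4 in both groups, spe-9, spe-11 and gsp-3 among them. spe-44, the factor that starts sperm gene expression, fell by 1.36 ± 0.23 (adjusted p = 0.00016). Summed sperm marker intensity was 5166 to 7373 on the control arrays and 3929 to 6596 on the TOR RNAi arrays. Of 32 zygotic embryo markers, 5 rose and 2 fell, with a median log2 difference of 0.25. sdz-28 rose by 2.63 ± 0.46 (adjusted p = 0.00019), and sdz-27 fell by 0.99 ± 0.16 (adjusted p = 9.4e-05). Summed embryo marker intensity was 14000 to 15670 on the control arrays and 12640 to 15700 on the TOR RNAi arrays. Among the low-quartile arrays, the calls were 1 higher and 3 lower for sperm and 1 and 2 for zygotic embryo. Centring arrays on their medians gave 2 higher and 7 lower for sperm and 3 and 6 for zygotic embryo, and further quantile normalization 3 higher and 2 lower for zygotic embryo. Dependence on 1 array was seen in zygotic embryo (1 to 8 higher and 2 to 4 lower without control arrays 3 or 5 or TOR RNAi arrays 2 or 3).

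Of 28 muscle markers, 6 rose and 0 fell by limma's test (0 fell at an unadjusted p under 0.05), with a median log2 difference of 0.36. The share risen was 21.4%, near the 19.9% of all genes, and the share fallen was 0% beside 13.4% of all genes. tnt-4, a troponin T gene of the pharynx, rose by 1.11 ± 0.25 (adjusted p = 0.0019). Probe sets of other sarcomere genes disagreed, so that ttn-1 ranged from -0.68 to 1.06 and unc-89 from -0.20 to 0.80 over their probe sets. Summed muscle marker intensity was 44360 to 56870 on the control arrays and 49340 to 76740 on the TOR RNAi arrays. Of 10 pharynx and gland markers, 4 rose and 0 fell by limma's test (0 fell at an unadjusted p under 0.05), with a median log2 difference of 0.54. phat-3, a gland peptide gene, rose by 1.88 ± 0.32 (adjusted p = 0.00017), while ceh-22, phat-1, phat-2 and phat-4 were below log2 4 in both groups. Of 4 coelomocyte markers, ZK512.7 fell by 2.60 ± 0.37 (adjusted p = 2.2e-05, shared type), and cup-4, lgc-26 and unc-122 stood at 1.43 ± 0.65 (adjusted p = 0.092), 0.99 ± 0.60 (adjusted p = 0.21) and 0.46 ± 0.28 (adjusted p = 0.21). On the low-quartile arrays the calls were 6 higher and 0 lower for muscle and 4 and 0 for pharynx and gland. Single arrays mattered for muscle (3 higher and 0 lower without TOR RNAi array 3). The median also moved for muscle (0.56 without TOR RNAi array 2).

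Nuclear hormone receptors, a large family of ligand-gated transcription factors in worms, had more rises than falls. Of 165 tested, 57 rose and 2 fell, with a median log2 difference of 0.29, while 94 others did not pass the filter on dim probe sets. nhr-3 read 8.07, 8.02, 8.19, 8.29 and 8.45 on the control arrays and 9.67, 9.28 and 10.32 on the TOR RNAi arrays, and rose by 1.55 ± 0.24 (adjusted p = 5.7e-05, shared type). nhr-129 rose by 1.46 ± 0.24 (adjusted p = 0.0001). Detoxification enzymes split. Of 56 cytochrome P450 genes, 17 rose and 12 fell, with a median log2 difference of 0.09 but -0.09 after median centring. cyp-13A2 rose by 1.71 ± 0.22 (adjusted p = 8.3e-06), and cyp-29A4 fell by 2.83 ± 0.26 (adjusted p = 6.1e-08). Of 57 UDP-glucuronosyltransferase genes, 15 rose and 7 fell, with a median log2 difference of 0.14 but -0.05 after median centring. ugt-18 rose by 2.24 ± 0.26 (adjusted p = 2e-06), and ugt-14 fell by 1.94 ± 0.24 (adjusted p = 3.1e-06). Of 41 glutathione S-transferase genes, 8 rose and 8 fell, with a median log2 difference of 0.05 but -0.13 after median centring and -0.02 after further quantile normalization. gsto-3 rose by 1.62 ± 0.26 (adjusted p = 9.3e-05), and gstk-1 fell by 2.25 ± 0.21 (adjusted p = 6.2e-08). Of 26 xenobiotic transporter genes, 6 rose and 6 fell, with a median log2 difference of 0.25. pgp-11, a P-glycoprotein gene, rose by 2.57 ± 0.24 (adjusted p = 7.4e-08), and mrp-4 fell by 2.01 ± 0.23 (adjusted p = 1.7e-06, shared type). Over low-quartile arrays only, the calls were 28 higher and 1 lower for nuclear hormone receptors, 9 and 8 for cytochrome P450, 8 and 10 for UDP-glucuronosyltransferases, 3 and 9 for glutathione S-transferases and 6 and 6 for xenobiotic transporters. Centring on medians gave 43 higher and 12 lower for nuclear hormone receptors, 12 and 11 for UDP-glucuronosyltransferases and 2 and 11 for glutathione S-transferases, and further quantile normalization 48 higher and 6 lower for nuclear hormone receptors. Array by array, calls moved for nuclear hormone receptors (28 to 62 higher and 1 to 6 lower without control arrays 4 or 5 or TOR RNAi array 3), cytochrome P450 (7 to 15 higher and 5 to 8 lower without TOR RNAi arrays 1, 2 or 3) and glutathione S-transferases (1 to 5 higher and 7 to 9 lower without control arrays 1, 2, 3 or 4 or TOR RNAi arrays 1, 2 or 3). Medians moved with 1 array for xenobiotic transporters (0.14 without TOR RNAi array 2).

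Stress genes gave no common direction. Of 12 small heat shock protein genes, 5 rose and 2 fell, with a median log2 difference of 0.62. hsp-16.2, a heat-inducible chaperone gene, read 6.53, 6.63, 5.94, 6.55 and 8.13 on the control arrays and 8.66, 8.66 and 9.56 on the TOR RNAi arrays, and rose by 2.2 ± 0.41 (adjusted p = 0.00031). hsp-16.41 rose by 2.49 ± 0.51 (adjusted p = 0.00078). Of 51 large chaperone genes, 10 rose and 5 fell, with a median log2 difference of 0.06 but -0.13 after median centring. cct-5, of the cytosolic chaperonin, rose by 0.88 ± 0.18 (adjusted p = 0.00088, shared type), and hsp-60, of the mitochondrial one, fell by 0.84 ± 0.23 (adjusted p = 0.0077, shared type). Of 14 superoxide dismutase, catalase and peroxiredoxin genes, 5 rose and 1 fell, with a median log2 difference of 0.06 but -0.13 after median centring. sod-4, the extracellular dismutase gene, rose by 1.81 ± 0.23 (adjusted p = 6.2e-06), while sod-3, a mitochondrial one and a common reporter of DAF-16, fell by 0.90 ± 0.20 (adjusted p = 0.0013). With low-quartile arrays alone, the calls were 2 higher and 0 lower for small heat shock proteins, 3 and 3 for large chaperones and 2 and 1 for superoxide dismutases and the like, and hsp-16.2 (1.62) and hsp-16.41 (1.51) were not called. Median-centred arrays gave 3 higher and 8 lower for large chaperones and 3 and 4 for superoxide dismutases and the like. Leaving out 1 array moved small heat shock proteins (3 higher and 1 lower without TOR RNAi array 3), large chaperones (5 to 8 higher and 1 to 4 lower without control arrays 2 or 3 or TOR RNAi arrays 1, 2 or 3), superoxide dismutases and the like (2 to 3 higher and 1 lower without TOR RNAi arrays 1 or 2) and hsp-60 (-0.66, not called without TOR RNAi array 3). A single array moved the median for small heat shock proteins (0.27 without TOR RNAi array 3).

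Of 18 genes known to be raised by DAF-16, 3 rose and 4 fell, with a median log2 difference of -0.09; the shares risen and fallen were 16.7% and 22.2% beside 19.9% and 13.4% of all genes. mtl-1, a metallothionein gene, read 12.48, 12.17, 12.15, 13.38 and 13.75 on the control arrays and 7.69, 9.64 and 11.40 on the TOR RNAi arrays, and fell by 3.21 ± 0.71 (adjusted p = 0.0016), with TOR RNAi array 1 far below array 3. nnt-1 fell by 1.47 ± 0.19 (adjusted p = 6.9e-06), and asah-2 rose by 0.92 ± 0.21 (adjusted p = 0.0023). Of 13 genes known to be lowered by DAF-16, 4 rose and 3 fell, with a median log2 difference of -0.14. dod-24 fell by 1.71 ± 0.27 (adjusted p = 5.3e-05, shared type), dod-22 fell by 2.61 ± 0.37 (adjusted p = 2.1e-05), and dod-23 rose by 1.33 ± 0.28 (adjusted p = 0.00093). Of 17 genes of one-carbon and methionine metabolism, 3 rose and 7 fell, with a median log2 difference of -0.15. cth-1 and cbs-1, of the path from homocysteine to cysteine, rose by 1.96 ± 0.30 (adjusted p = 4.6e-05) and by 1.0 ± 0.19 (adjusted p = 0.00036). metr-1, methionine synthase, fell by 0.80 ± 0.17 (adjusted p = 0.0013), and pmt-2, of phosphocholine synthesis, fell by 1.23 ± 0.25 (adjusted p = 0.00079). Of 24 heme and metal genes, 3 rose and 3 fell, with a median log2 difference of 0.20. cdf-2, a zinc transporter gene, rose by 1.13 ± 0.25 (adjusted p = 0.0016), and cdr-2, a cadmium response gene, fell by 1.81 ± 0.28 (adjusted p = 5.2e-05). Within the low-quartile set, the calls were 0 higher and 4 lower for DAF-16-raised genes, 2 and 3 for DAF-16-lowered genes, 2 and 6 for one-carbon metabolism and 2 and 4 for heme and metal handling, and asah-2 (0.79) was not called. Median centring gave 3 higher and 5 lower for heme and metal handling. Dependence on 1 array was seen in heme and metal handling (5 to 6 higher and 3 lower without control array 4 or TOR RNAi array 2). The median also moved for heme and metal handling (0.09 without control array 1 and 0.13 without TOR RNAi array 3).

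The same knockdown in worms fasted for 48 h gave 1832 rises and 1257 falls, or 14.9% and 10.2% of genes, and 1369 calls in all on the low-quartile arrays. The fasted arrays are in neither group of the fed comparison but entered its estimate of spread and its filter. The low-quartile arrays include all fasted TOR RNAi arrays but only arrays 4 and 5 of the fasted controls, the same imbalance as in fed worms. Its part in the calls shared by both states was not tested. Of the fed rises, 1299 were also called higher in fasted worms, which was 53.3% of the fed and 70.9% of the fasted rises. Of the falls, 737 were shared, 44.7% of the fed and 58.6% of the fasted. Opposite calls were made for 20 and 5 genes. Neuropeptide genes rose in 55 cases in fasted worms, 53 of them called higher in both states, and insulin-like peptides in 13, all 13 shared. Oocyte markers fell in 20 cases, 18 of them shared. F54F7.2 was at -5.08 and tbh-1 at -4.04 in fasted worms, next to -5.28 and -4.42 in fed ones.

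Where the difference between TOR RNAi and control worms varied by feeding state was tested as an interaction, which called 300 genes, or 2.44%. The difference was more positive in fed worms for 214 (1.74%) and more negative for 86 (0.700%), with 193 genes called without TOR RNAi array 3 of the fed group and 166 on the low-quartile arrays. 7 of 13 lysozyme, 6 of 11 aspartyl protease and 5 of 12 cathepsin genes were more positive in fed worms. cpr-2 stood at 5.53 with food and -1.46 after fasting, and the fed value exceeded the fasted one by 6.99 ± 0.73 (adjusted p = 4.8e-06). ilys-3 was at 6.29 and 1.29, so that the fed value exceeded the fasted one by 5.0 ± 0.63 (adjusted p = 3.8e-05). For acs-2, at 3.28 fed and -0.81 fasted, the fed value exceeded the fasted one by 4.09 ± 0.72 (adjusted p = 0.0015). Collagens lay on the other side. 12 of them were more negative in fed worms, with col-183 at -5.19 fed and -1.51 fasted, and 11 fell in fasted worms against 64 in fed ones. ins-7 rose more in fasted worms, by 4.87, and the fed value lay below the fasted one by 3.16 ± 0.44 (adjusted p = 0.00014). Control levels also moved with fasting. col-183 averaged 9.35 fed and 5.90 fasted in control worms, and 4.16 and 4.39 in TOR RNAi worms. ilys-3 averaged 6.42 and 11.32 in control worms, and 12.71 and 12.62 in TOR RNAi worms. cpr-2 moved in both groups, from 4.41 to 6.79 in control and from 9.94 to 5.33 in TOR RNAi worms. Whether the fasted control levels limited the fasted differences was not tested.

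**Figure D5:**
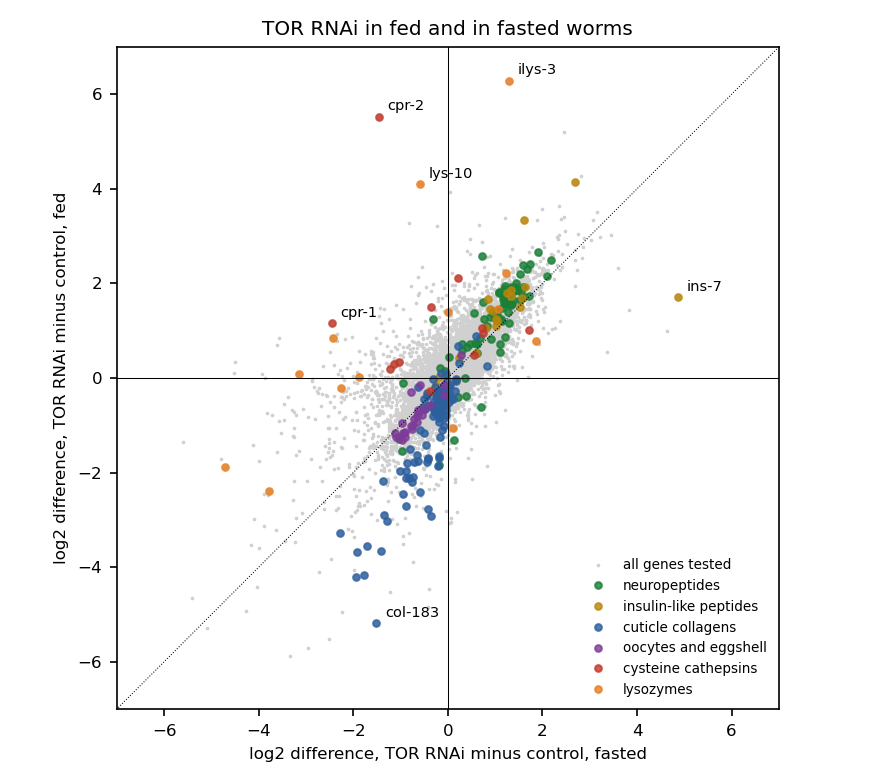
Log2 difference of TOR RNAi minus control in fasted (x) against fed worms (y), 1 point per gene, with all genes tested in grey and 6 gene lists in colour, and the dotted line marking equal differences. Neuropeptides and oocyte markers lie along the line, collagens lie below it, and the cathepsin cpr-2 lies at 5.53 fed and -1.46 fasted.

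Against the fed worms labelled Rheb RNAi (n = 4), named for the activator of TOR complex 1, fed TOR RNAi worms differed in 693 genes (5.64%), 2.80% higher and 2.84% lower. The count was 426, 417 and 414 without TOR RNAi array 1, 2 and 3. It was 307 when all other arrays were dropped before fitting, and 1138 with array weights. Only array 4 of the fed Rheb RNAi worms is a low-quartile array, so the count for that set is not used here. With the lower quartile class as a block, 263 genes were called higher and 430 lower, and 450 of these were among the 693. Ubiquitin probe sets at the 3′ end exceeded the middle ones by 3.605 (log2) on fed Rheb RNAi array 3. The other fed Rheb RNAi arrays gave 1.87 to 2.60 and the fed TOR RNAi arrays 2.16 to 2.26. No Rheb RNAi array was left out, and the part of these array properties in the list counts and medians was not tested. rheb-1 itself was at 8.85 (SD 0.61, n = 4) on the Rheb RNAi and 9.15 (SD 0.25, n = 5) on the control arrays, means closer than the spread of the Rheb RNAi arrays, and TOR minus Rheb RNAi was 0.49 ± 0.27 (adjusted p = 0.33), so its knockdown is taken from the label. let-363 was lower than in Rheb RNAi worms by 1.58 ± 0.14 (adjusted p = 1.6e-07). F54F7.2, at a mean of 11.14 in control, 9.82 in Rheb RNAi and 5.85 in TOR RNAi worms, differed between the RNAi groups by -3.96 ± 0.23 (adjusted p = 2e-10). tbh-1, at 12.34, 11.47 and 7.91, differed by -3.55 ± 0.19 (adjusted p = 6.8e-11). lys-10, at 6.44, 6.99 and 10.54, differed by 3.55 ± 0.64 (adjusted p = 0.0013). dod-24 was lower than control in both, at 12.83, 7.67 and 11.12, and higher in TOR than in Rheb RNAi worms by 3.45 ± 0.28 (adjusted p = 2.5e-08). Among the lists, 11 cuticle collagens were lower in TOR RNAi worms and 0 higher. Lower calls also led in hedgehog-related genes (9 of 55, 1 higher), UDP-glucuronosyltransferases (9 of 57, 3 higher) and muscle markers (6 of 28, 0 higher). The muscle median was -0.64 against Rheb RNAi worms, whereas it was 0.36 against control. Higher calls led in lectins (21 of 99, 2 lower), lipases (5 of 11, 1 lower) and DAF-16-lowered genes (5 of 13, 0 lower). Of the neuropeptide genes, 1 was called higher and 1 lower, with a median difference of 0.24. Both comparisons use the same TOR RNAi arrays.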

How the data were processed

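The data were 24 Affymetrix C. elegans arrays, 1 per RNA sample of 5 µg, per the labels' protocols. The authors deposited GCRMA intensities on a linear scale, made with GeneSpring GX 7.3.1 per the submitters' processing notes, with the GCRMA version not given in the sources used here. Log2 of the intensity was taken, with no further normalization.

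Of 22625 probe sets, 77 were controls, 20766 named 1 gene in the platform annotation, 887 named several and 895 none. Of the 20766, 20701 matched a RefSeq entry by Entrez number and 65 kept the annotation's name. The probe set of a gene with the highest mean over the 24 arrays stood for it. Genes whose chosen probe set was above log2 4 on at least 3 arrays were kept, giving 12277 genes of 17118. limma 3.58.1 in R 4.3.3 fitted 6 group means over the 24 arrays with moderated variances, and p-values were adjusted by Benjamini-Hochberg over all 12277 genes. The threshold was 0.05.

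Named genes were the 15 largest called rises and falls whose arrays did not overlap, and up to 5 called members of each list by smallest p. Uncalled members were named only for the TOR and insulin pathways or lists of 6 or fewer tested genes, and genes outside the rule are marked so. Of 294 such genes, 101 were read by _s_at or _x_at probe sets. The comparison, the 56 gene lists and the members were chosen with earlier results of these data known, so list counts are descriptions. The number of arrays limits the precision. Separate worm cultures are given only as biological replicates, so p-values measure the spread between these samples.

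On data simulated for TOR fed against control fed over 12277 genes, the fit recovered 14%, 58%, 98% and 96% of genes changed 1.5-, 2-, 3- and 4-fold, with 7 false calls. Far fewer genes were changed there than the 33.3% called in the data, and noise was independent between genes, without array effects. These figures check the fit and do not give the recovery or false calls of the real comparison. Alternatives covered scaling, the dim filter, probe set choice, the variance model, the arrays fitted, each fed array left out and blocks by number. After the data had been seen, the low-quartile arrays alone and the lower quartile class as a block were added. A planned search of promoters for motifs was not run. The result of 1 gene is not reported here.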

Additional observations from a re-analysis of the deposited data

Results flagged for a closer look

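In 15 of the 294 named genes, 1 of the 5 fed control arrays lay far from the other 4, with a gap to its neighbour of more than 0.71 of the group's range (Dixon's limit, 0.710). Chance gives about 1 such group in 20, and 15 of 294 is close to that. By share of the range, control array 5 was the lowest for vha-19 (0.835), pgk-1 (0.783), ugt-27 (0.876), mrp-4 (0.725), grl-4 (0.903) and mcm-3 (0.781). Likewise, control array 4 was the highest for sinh-1 (0.883), lmtr-2 (0.814), lmtr-5 (0.749) and fbf-1 (0.743). For the rest, control array 1 was the highest for sod-3 (0.772), control array 2 was the lowest for asah-2 (0.747), control array 3 was the lowest for lipl-3 (0.764), control array 4 was the lowest for cpr-4 (0.747) and control array 5 was the highest for irg-4 (0.87). These values were kept, and each gene's result without the array is among the repeats with single arrays left out.

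For 37 named genes the effect of TOR RNAi differed between fed and fasted worms by the interaction term (limma, 300 genes or 2.44% called in all). The values are the fed minus the fasted log2 difference. More positive in fed worms were the lysozyme, cathepsin, saposin, lipase and nspg genes cpr-2 (6.99), ilys-3 (5), lys-10 (4.68), nspg-7.2 (3.89), cpr-1 (3.62), lipl-2 (2.23), lipl-3 (2.2) and spp-1 (1.83). So were genes of fatty acid activation and peroxisomal oxidation, acs-2 (4.09), acox-1.5 (2.9) and acs-3 (1.19), and of detoxification and export, ugt-18 (1.74), pgp-11 (1.73), cyp-33C4 (1.13) and ugt-51 (1.06). The others on this side were dod-24 (3.08), R07C12.1 (2.75), ptr-22 (2.16), ins-22 (1.71), aqp-7 (1.48), asah-2 (1.47) and ins-23 (1.46). More negative in fed worms were the collagen genes col-183 (-3.68), col-101 (-2.28), col-181 (-1.84) and col-158 (-1.45), and F46F2.3 (-4.44), C17H12.6 (-4.08), spig-20 (-3.31), ins-7 (-3.16), D1086.3 (-3), irg-4 (-2.77), fipr-26 (-2.71), cnc-6 (-2.57), grl-4 (-2.05), clec-67 (-2.04) and spp-24 (-0.851).

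Probe sets outside the gene comparison also differed between fed TOR RNAi and control worms. Of 424 probe sets that named no gene and passed the dim filter, 101 were called, 34 higher and 67 lower. Of 605 naming several genes, 211 were called, 101 higher and 110 lower. Among genes, 33.3% were called.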

How the results depend on the processing

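Of 265 called named genes, 178 kept their call and direction under all 24 repeats that tested them, and 225 with each fed array left out in turn. The 24 include the block with TOR numbers of their own, where 11 lost their call. That fit does not estimate the same difference, as described with the replicate numbers. Calls were lost for 66 on the low-quartile arrays, 32 without TOR RNAi array 3, 19 after median centring and 16 with the lower quartile class as a block, and the cause was not tested. sqt-3, a cuticle collagen gene at -1.64 by its shared-type probe set, reversed to 0.28 (limma adjusted p = 0.43) with that type left out. In fed worms, median centring gave 1628 higher and 2923 lower genes, and further quantile normalization 2222 and 1913. With the lower quartile class as a block, 3450 genes were called, 3024 of them among the 4087. On the low-quartile arrays alone the calls numbered 2336 in fed and 1369 in fasted worms, 166 for the interaction and 291 against Rheb RNAi. On the low-quartile arrays the comparison with Rheb RNAi rests on array 4 alone of the fed Rheb RNAi worms. Its count is therefore not a repeat of the main comparison, and nothing is concluded from it. Array weights gave 1138 calls against Rheb RNAi, and a fit of only the arrays compared 307. Leaving out each of the 8 fed control and fed TOR RNAi arrays gave 2570 to 4350 calls in fed worms and -1.35 to -1.49 for let-363. The same repeats gave 2971 to 3135 calls in fasted worms, 193 to 292 for the interaction and 414 to 720 against Rheb RNAi. No fasted or Rheb RNAi array was left out. The fasted range therefore shows only changes in the shared estimate of spread, and the interaction and Rheb RNAi ranges are partial. In fed worms 2570 was the count without TOR RNAi array 3. All counts are of limma at an adjusted p of 0.05. The 24 arrays and the dim probe sets limit what could be seen: 4841 genes did not pass the filter.

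Replicate numbers did not pair the fed TOR RNAi and control arrays. Deviations from the group mean correlated at 0.24, -0.01 and -0.19 between TOR RNAi and control arrays 1, 2 and 3 of the same number, whereas TOR RNAi arrays 1, 2 and 3 correlated best with control arrays 3, 4 and 5 (0.34, 0.37 and 0.44), a hint from the data and not from the design. With the replicate block, 6655 genes were called in fed worms, 5951 in fasted worms, 719 for the interaction and 2933 against Rheb RNAi. Where the TOR groups had block numbers of their own, 1118 genes were called for the interaction. The other counts of that fit were 6315 in fed worms, 5565 in fasted worms and 3207 against Rheb RNAi. They set block 3 of TOR RNAi against block 1 of the other group, because blocks within TOR RNAi cannot be separated from the knockdown. They are therefore not repeats of the main comparisons.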

Other observations

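Some families that share a gene name prefix, and lie almost wholly outside the lists, had larger shares of rises than all genes (19.9% higher and 13.4% lower) in fed TOR RNAi worms. They were picked after their values were seen, so the counts are descriptions with no test of the family, and calls are those of limma. Among fbxb genes, which encode F-box proteins that select targets for ubiquitin ligases, 52 rose and 0 fell of 81 (1 fell at an unadjusted p under 0.05), with a median log2 difference of 1.33. In fasted worms 57 of them rose and 0 fell (0 at an unadjusted p under 0.05), and after median centring 46 rose and 3 fell in fed worms. In the related fbxc family 15 rose and 3 fell of 32, whereas fbxa, where 24 rose and 9 fell of 110, was near the share of all genes. Of the skr genes, which encode Skp1-related adaptors of the same ligases, 12 rose and 1 fell of 18. Whether close copies in these families share probe sets was not tested.

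Of the histone (his) genes 17 rose and 0 fell of 25 (0 fell at an unadjusted p under 0.05), with a median of 0.52 and 11 rises after median centring. Of the transthyretin-like (ttr) genes, which encode small secreted proteins, 19 rose and 1 fell of 35, with a median of 1.06. In the nssp family 26 rose and 2 fell of 40, with a median of 1.09.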
